A study of Mus musculus with 8 samples.

Results

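Genes of the core spliceosome, the SR proteins and the hnRNPs were examined in M1 after knockdown of *Fezf2*. They were taken by name: protein-coding genes whose symbol starts with Srsf, Sf3a, Sf3b, Snrp, U2af, Hnrnp or Prpf, without *Snrpn*. The rule found 67 of the 38031 genes in the count table. All 67 had more than 1 cpm (counts scaled to a common library total) in at least 4 of the 8 libraries, as did 16481 genes in all, and 60 of the 67 had more than 8 cpm, the limit used in the study's methods. The genes that the prefix Snrnp would add, such as *Snrnp70*, are outside the rule and were counted with the other genes of the pathway.

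The libraries were made from total RNA of M1 of male Swiss Webster mice, 4 treated with *Fezf2 shRNA* and 4 with *non-silencing shRNA*. A lentivirus carried the shRNA together with mCherry behind the synapsin I promoter, which is active in neurons, and it was injected between P21 and P25. Tissue was taken between P49 and P53 and held all cortical layers and the meninges, so transduced neurons were mixed with other cells. The question was which transcripts change in mature M1 when *Fezf2*, a transcription factor of deep-layer projection neurons, is reduced. In bulk tissue, fewer cells of a type and less RNA per cell cannot be told apart.

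Introns are removed from pre-mRNA by the spliceosome, which is built anew on each intron from small nuclear ribonucleoproteins (snRNPs) and many other proteins. Sm proteins form a ring on the snRNAs, U2AF binds the 3′ splice site, the SF3A and SF3B complexes hold the U2 snRNP at the branch point, and the PRPF proteins belong mostly to the tri-snRNP and to the complexes of the catalytic steps. SR proteins bind exons and promote their inclusion, while hnRNPs coat pre-mRNA and often act against inclusion. Many SR and hnRNP genes make transcripts with a premature stop codon from exons that regulate their own level, and such transcripts are degraded.

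*Fezf2* itself had 686.3, 775.0, 732.5 and 696.0 normalized counts in the *non-silencing shRNA* samples (replicates 1 to 4) and 622.0, 585.1, 573.2 and 585.0 in the *Fezf2 shRNA* samples. All samples with *Fezf2 shRNA* were below all controls. The log2 fold change (LFC), positive where *Fezf2 shRNA* is higher, was -0.29 with a standard error (SE) of 0.0774, with an adjusted p = 0.119 in edgeR's quasi-likelihood test, and a two-sided exact permutation test gave p = 0.0286, the smallest that 4 samples against 4 allow. Normalized counts here are raw counts scaled to a common effective library size.

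The shRNA was compared with the members because it is the reagent that separates the groups. Its sense sequence is shown with the letters found in each gene's annotated transcripts in capitals. All 19 nt are in *Fezf2*, and *Srsf2* had a match of 11 nt. No match in any of the 67 members was longer, and the median was 8 nt.
*Fezf2*: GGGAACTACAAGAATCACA
*Srsf2*: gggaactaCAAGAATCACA
The LFC of *Srsf2* was -0.23 (adjusted p = 0.394 in edgeR's quasi-likelihood test). Its values in the 2 treatments overlapped. The match is a description of letters only.

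No member passed the threshold of the study's methods (adjusted p at most 0.05 together with an LFC of 0.2 or more in size) in edgeR's quasi-likelihood test, 0 of 67. Across all genes tested, 84 of 16481 passed, 0.51%, of which 79 were increased (0.479%) and 5 decreased (0.0303%). The number 84 was 1 without *non-silencing shRNA* replicate 1, replicate 4 or *Fezf2 shRNA* replicate 1, 224 without *non-silencing shRNA* replicate 2 and 23 without replicate 3. It was 6 without *Fezf2 shRNA* replicate 3, 4 without replicate 4, and 3 with an offset for gene length. No member passed in any of these fits. With DESeq2's Wald test, 1 member passed, *Srsf4*, which is 1.49% of the members against 4.39% of all genes (724). At an unadjusted p under 0.05 in edgeR, 9 members were lower with *Fezf2 shRNA* against 6.13% of all genes, and 1 was higher against 9.75% of all genes. The 10 members are 14.9% of the list, beside 15.9% of all genes in either direction. That count was 17, or 25.4%, without *non-silencing shRNA* replicate 2, where 19.1% of all genes had such a p. It was 5 (7.46%) without *non-silencing shRNA* replicate 3 (13.5% of all genes), 6 (8.96%) without *Fezf2 shRNA* replicate 1 (13.3%), 5 without *Fezf2 shRNA* replicate 3 (12.5%), and 5 with the gene-length offset (10.1%).

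Most members had a lower mean with *Fezf2 shRNA*, 55 of 67, or 82.1%, against 55.7% of all genes tested. The members' median LFC was -0.11, or -7.11%, beside -0.03 over all genes. With the gene-length offset it was -0.05, beside -0.02 over all genes. The spread of the members' median between replicates was 0.03 on the log2 scale. In 5 members the 4 *Fezf2 shRNA* values all lay below the 4 controls (*Srsf1*, *Prpf19*, *Sf3b2*, *Hnrnpul1* and *Snrpg*), against 3.76% of all genes, and in 1 member (*Srsf4*) they all lay above, against 6.23% of all genes. The count of such members, 6 (8.96%, against 9.99% of all genes), was 14 (20.9%, against 18.4%) without *non-silencing shRNA* replicate 2 and 11 (16.4%, against 18.5%) without *Fezf2 shRNA* replicate 2, where 3 samples against 4 separate more easily. It was 4 (5.97%, against 6.32%) with the gene-length offset.

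**Figure D1:**
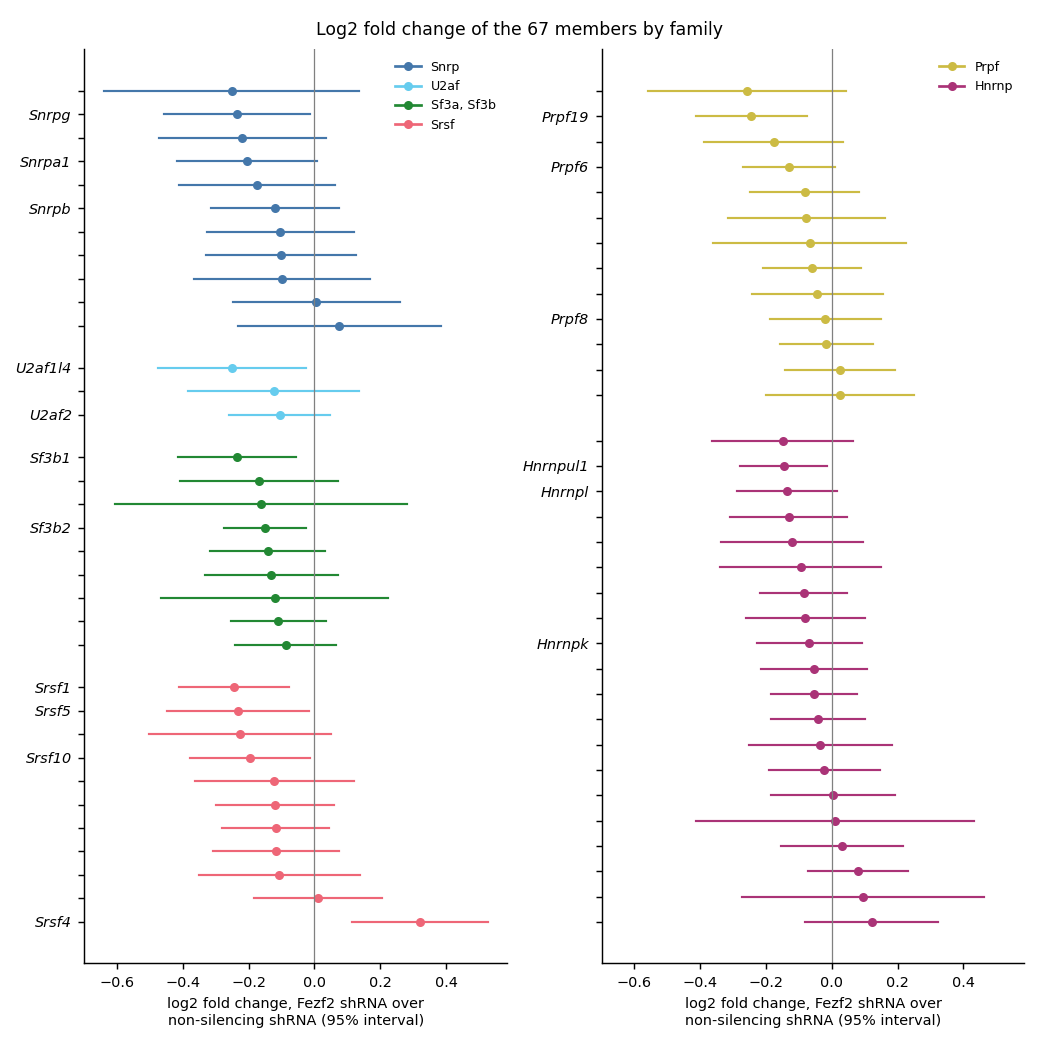
Log2 fold change (*Fezf2 shRNA* over *non-silencing shRNA*, x axis) of each of the 67 members, by family, with the 95% confidence interval of the edgeR fit as a line and a label for the named members. Most points lie left of 0, and *Srsf4* at 0.32 is farthest to the right.

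The Snrp family, 11 genes, holds Sm proteins and proteins particular to the U1 and U2 snRNPs. Its median log2 fold change was -0.12 (-0.04 with the gene-length offset), with 9 of 11 lower. *Snrpg*, an Sm ring protein, had 317.1, 300.4, 310.8 and 309.5 normalized counts in the controls and 267.0, 275.4, 263.0 and 246.1 with *Fezf2 shRNA*. Its replicates lay close together and the treatments did not overlap. Its LFC was -0.24 with an SE of 0.101, and edgeR's quasi-likelihood test gave an adjusted p = 0.292. With the study's filter of more than 8 cpm, *Snrpg* was not tested.

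*Snrpa1*, a U2 snRNP protein, had 582.2, 553.9, 572.6 and 632.4 in the controls and 453.1, 477.2, 573.2 and 526.5 with *Fezf2 shRNA*. Replicate 3 with *Fezf2 shRNA* lay within the controls, and the LFC was -0.21 (SE 0.0969, adjusted p = 0.327 in edgeR's quasi-likelihood test). The transcript that stands for *Snrpa1* is annotated as subject to nonsense-mediated decay, and *Gm45213* covers 12.3% of its interval. *Snrpb*, the Sm protein gene with the most reads per kb of interval in this family (134.1), had an LFC of -0.12 (SE 0.0885). It was -0.06 without *non-silencing shRNA* replicate 3, -0.08 without *Fezf2 shRNA* replicate 3 and -0.04 with the gene-length offset. The family's other members ranged up to 0.07, in *Snrpf*, another Sm ring protein. *Snrpg* shares 34.2% of its interval with a gene on the other strand, and *Snrpf* 23.9% with 2 such genes.

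The U2af family has 3 genes, all lower. *U2af1l4*, which resembles the small U2AF subunit, had 438.9, 441.2, 505.9 and 504.2 normalized counts in the controls and 382.3, 447.9, 363.4 and 396.4 with *Fezf2 shRNA*. *Fezf2 shRNA* replicate 2 lay above 2 of the controls. This is an LFC of -0.25 (SE 0.102), and the adjusted p = 0.272 in edgeR's quasi-likelihood test. With the study's filter of more than 8 cpm, *U2af1l4* was not tested. All of its interval is covered by other annotated genes, a readthrough gene and *Psenen*, so its reads cannot be separated from theirs. *U2af2*, the large subunit that binds the polypyrimidine tract, had an LFC of -0.11 (SE 0.0695, adjusted p = 0.470 in edgeR's quasi-likelihood test; -0.06 with the gene-length offset), and its treatments overlapped.

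All 9 genes of the Sf3a and Sf3b families, which form the U2 snRNP's branch point complexes, were lower, from -0.23 to -0.09, and 8 of 9 were with the widest transcript of each gene or without *non-silencing shRNA* replicate 3. *Sf3b1*, the large SF3B subunit that contacts the branch point (chr1:54985169-55027481), had 9330.8, 7548.1, 8720.8 and 9943.1 normalized counts in the controls. With *Fezf2 shRNA* it had 7564.1, 7598.2, 7544.6 and 7501.3. The *Fezf2 shRNA* samples differed by less than the controls did, and the control in replicate 2 lay among them. In edgeR's quasi-likelihood test the LFC was -0.23 with an SE of 0.0815 (adjusted p = 0.204).

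*Sf3b2*, another SF3B subunit, had 6111.5, 6247.3, 6672.5 and 6106.2 in the controls and 5548.4, 5895.4, 5570.1 and 5631.3 with *Fezf2 shRNA*. The treatments did not overlap, and the LFC was -0.15 (SE 0.0571, adjusted p = 0.241 in edgeR's quasi-likelihood test). *Sf3b2* also had the most reads per kb of interval in this family (277.5). *Sf3a2*, the member with the shortest interval, was represented by a retained intron transcript and had an LFC of -0.16 with an SE of 0.202. With its widest transcript it was 0.02, and 3 of its 4 counted intervals had a higher mean with *Fezf2 shRNA*.

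Of the 13 Prpf genes, 11 were lower, with a median of -0.07 (-0.11 without *non-silencing shRNA* replicate 2 or *Fezf2 shRNA* replicate 4, and -0.10 with library totals). *Prpf19*, the core protein and ubiquitin ligase of the Prp19 complex (chr19:10895231-10905532), had 3930.0, 3537.2, 3985.8 and 3612.2 normalized counts in the controls. With *Fezf2 shRNA* it had 3293.1, 3534.8, 2949.2 and 2933.1. Replicate 2 with *Fezf2 shRNA* reached just under the lowest control and the other 3 lay well below. Its LFC was -0.25 with an SE of 0.0768, and edgeR's quasi-likelihood test gave an adjusted p = 0.161.

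*Prpf6*, a tri-snRNP protein, had an LFC of -0.13 (SE 0.0637, adjusted p = 0.343 in edgeR's quasi-likelihood test). *Prpf8*, which lies at the catalytic centre and had the most reads per kb of this family (367.3), had 8420.7, 9270.3, 7964.8 and 7825.1 in the controls. It had 7901.9, 8942.9, 8570.4 and 7614.2 with *Fezf2 shRNA*, and the treatments overlapped over most of their range. Its LFC was -0.02 (95% confidence interval -0.19 to 0.15), and it turned to 0.03 without *non-silencing shRNA* replicate 2, 0.02 without *Fezf2 shRNA* replicate 4, 0.0012 without *Fezf2 shRNA* replicate 1 and 0.0063 with the gene-length offset. It was -0.06 without *Fezf2 shRNA* replicate 2.

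**Figure D2:**
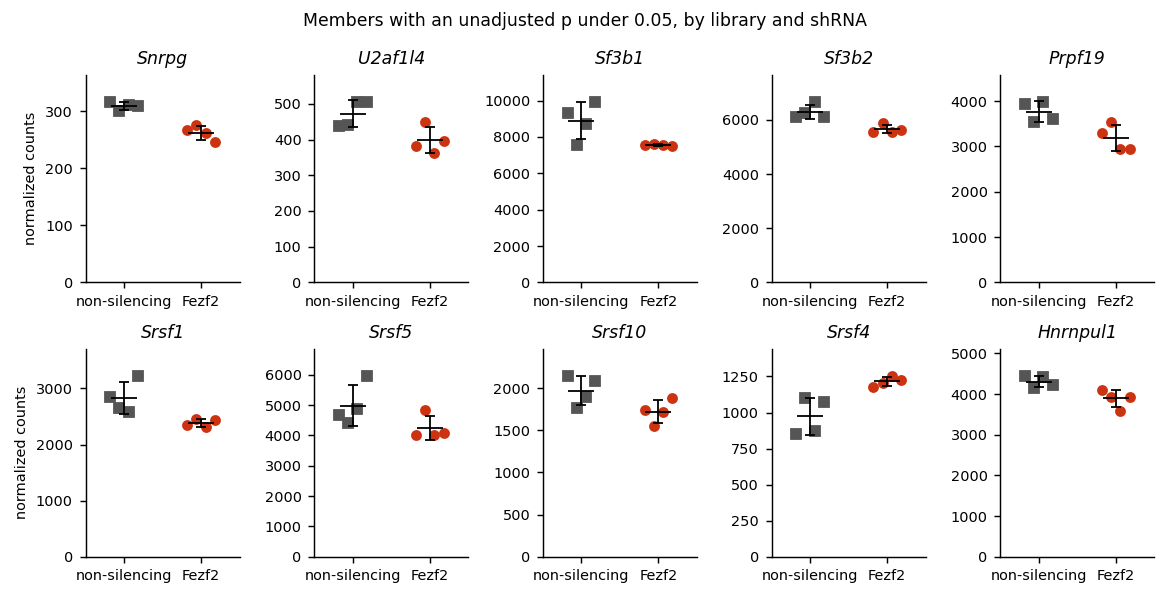
Normalized counts (y axis from 0) in each library, with *non-silencing shRNA* as squares and *Fezf2 shRNA* as circles, for the 10 members with an unadjusted p under 0.05. Bars are the mean and SD (n = 4). *Srsf4* is the member in which the circles lie above the squares.

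Of the 11 Srsf genes, 9 were lower, with a median of -0.12. The median was -0.05 without *non-silencing shRNA* replicate 4, and also with the gene-length offset. *Srsf1*, an SR protein that promotes the use of nearby 5′ splice sites (chr11:88047718-88051490), had 2855.0, 2654.8, 2584.7 and 3221.8 normalized counts in the controls and 2353.5, 2456.4, 2303.7 and 2435.9 with *Fezf2 shRNA*. The treatments did not overlap, and control replicate 4 was the highest. This is an LFC of -0.24 (SE 0.0763), and the adjusted p = 0.160 in edgeR's quasi-likelihood test. With the gene-length offset it was -0.15.

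*Srsf5*, which had the most reads per kb of interval of all members (921.6), had 4672.3, 4419.7, 4873.2 and 5962.6 in the controls and 4028.3, 4840.2, 4025.2 and 4073.9 with *Fezf2 shRNA*. Replicate 4 of the controls and replicate 2 with *Fezf2 shRNA* stood above the rest of their groups. In edgeR's quasi-likelihood test the LFC was -0.23 with an SE of 0.0986 (adjusted p = 0.288). It was -0.13 without *non-silencing shRNA* replicate 4 and -0.14 with the gene-length offset. *Srsf10*, an SR protein that can also repress splicing, had an LFC of -0.20 (SE 0.0833, adjusted p = 0.287 in edgeR's quasi-likelihood test), and its treatments overlapped. The transcript that stands for *Srsf10* is annotated as a processed transcript, not as protein coding.

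*Srsf4* went the other way. Its counted interval (chr4:131885208-131901706) had 852.2, 1098.4, 870.7 and 1073.0 normalized counts in the controls and 1179.3, 1203.5, 1253.7 and 1228.5 with *Fezf2 shRNA*. All 4 *Fezf2 shRNA* samples were above all controls, and the controls fell into a lower pair (replicates 1 and 3) and a higher pair. Its LFC was 0.32 (SE 0.0935), with an adjusted p = 0.141 in edgeR's quasi-likelihood test and 0.0385 in DESeq2's Wald test. It was 0.37 with the gene-length offset.

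The transcript that stands for *Srsf4* is annotated as a retained intron. The other 3 counted transcripts of the gene, among them the protein-coding one, gave log2 ratios of group means between 0.27 and 0.32. Nested intervals share reads (3 nested pairs among the 4 transcripts), so these ratios are not independent of each other. A gene on the other strand, *Gm12992*, covers 13.5% of the interval, and its reads cannot be told apart where the use of strand in counting is not stated.

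The 20 Hnrnp genes had a median of -0.05, with 14 lower and 6 higher. The median was -0.03 without *non-silencing shRNA* replicate 3 or replicate 4, -0.09 with library totals and -0.01 with the gene-length offset. *Hnrnpul1*, an hnRNP U-like protein, had 4444.5, 4146.4, 4408.4 and 4228.3 normalized counts in the controls and 4104.2, 3927.2, 3594.6 and 3937.7 with *Fezf2 shRNA*. The treatments did not overlap, though *Fezf2 shRNA* replicate 1 came close to the lowest control. Its LFC was -0.15 with an SE of 0.0605, and edgeR's quasi-likelihood test gave an adjusted p = 0.277.

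*Hnrnpl*, which binds CA-rich RNA, had an LFC of -0.14 (SE 0.0688, adjusted p = 0.353 in edgeR's quasi-likelihood test), and -0.07 with the gene-length offset. *Hnrnpk*, with the most reads per kb in this family (650.8), had 7628.4, 7399.9, 7687.3 and 7310.3 in the controls and 7114.1, 7994.7, 7136.0 and 6373.6 with *Fezf2 shRNA*. The *Fezf2 shRNA* samples spread on both sides of the controls, and the log2 fold change was -0.07 (95% confidence interval -0.23 to 0.09). It was -0.13 without *Fezf2 shRNA* replicate 2, -0.02 without *Fezf2 shRNA* replicate 4 and -0.0041 with the gene-length offset. The highest value of the family was 0.12, in *Hnrnpul2*, of whose interval 30.9% is shared with a readthrough gene.

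The direction of each family's median was negative in every setting tried, including the 3 other normalizations, but its size changed. The median over all genes was negative in every setting as well, from -0.056 with library totals to -0.0059 without a filter on low counts. The members' median was -0.05 with the gene-length offset, beside -0.02 over all genes in that fit, and 52 of 67 members were then lower. In that fit the median was -0.04 for Snrp, -0.05 for Srsf, -0.06 for U2af and Prpf, and -0.07 for Sf3a and Sf3b. For Hnrnp it was -0.01, less negative than the median over all genes. The Srsf median was -0.05 without *non-silencing shRNA* replicate 4.

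Log2 fold changes were higher for genes with a wider counted interval, and the members are short. The median span was 11812 bp for the members and 20013 bp for all genes. Under 10 kb, 23 of 27 members were lower with a median of -0.12, and 72.7% of 5297 genes of that span were lower with a median of -0.10. Between 10 and 30 kb, the median was -0.08 for 30 members and -0.06 for 4859 genes. Between 30 and 100 kb, 9 of 10 members were lower (median -0.07), whereas 41.8% of 4264 genes were (median 0.02). Over 100 kb there is no member, and the median of 2061 genes was 0.18. Spearman's rho of span and log2 fold change was 0.33 over the members and 0.43 over all genes, across genes that share their libraries.

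**Figure D3:**
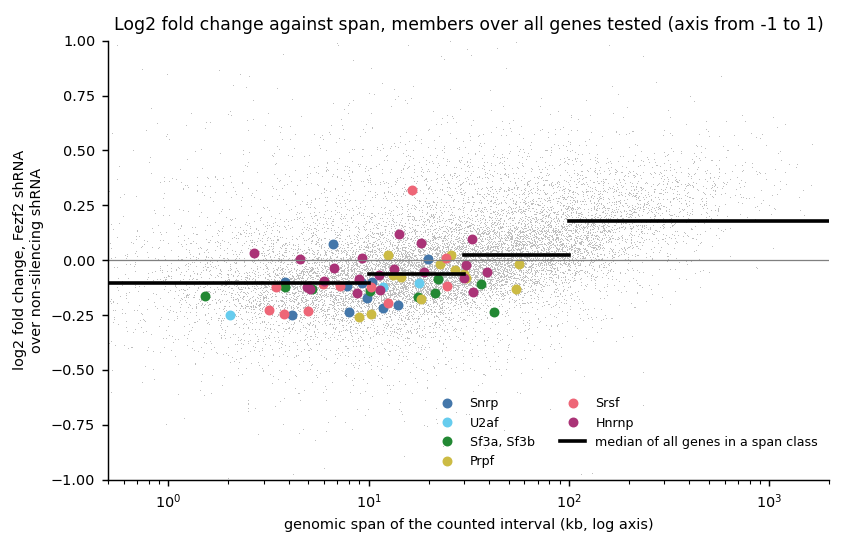
Log2 fold change (y axis, shown from -1 to 1) against the span of the counted interval (x axis, kb, log scale) for all genes tested (grey) and the members (coloured by family). Black lines are medians of all genes in 4 span classes, from -0.10 under 10 kb to 0.18 over 100 kb.

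Libraries differed within the groups, and not alike for each family. The members took 0.242%, 0.240%, 0.255% and 0.280% of the counts in the controls and 0.227%, 0.242%, 0.233% and 0.230% with *Fezf2 shRNA*. *Fezf2 shRNA* replicate 2 thus lay among the controls. It was the highest of its group for 35 of 67 members (52.2%), against 28.2% of all genes tested.

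Control replicate 4 was the highest control for 26 of 67 members, and for 8 of the 11 Srsf genes. The median deviation of the Srsf genes from their mean over 8 libraries was 0.25 there and between -0.05 and 0.03 in the other controls. The Hnrnp median was instead -0.09 in control replicate 1, where 11 of 20 had their lowest control value. The median deviation of the Sf3a and Sf3b genes was above 0 in every control and below 0 in every *Fezf2 shRNA* library, which does not hold for each gene.

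**Figure D4:**
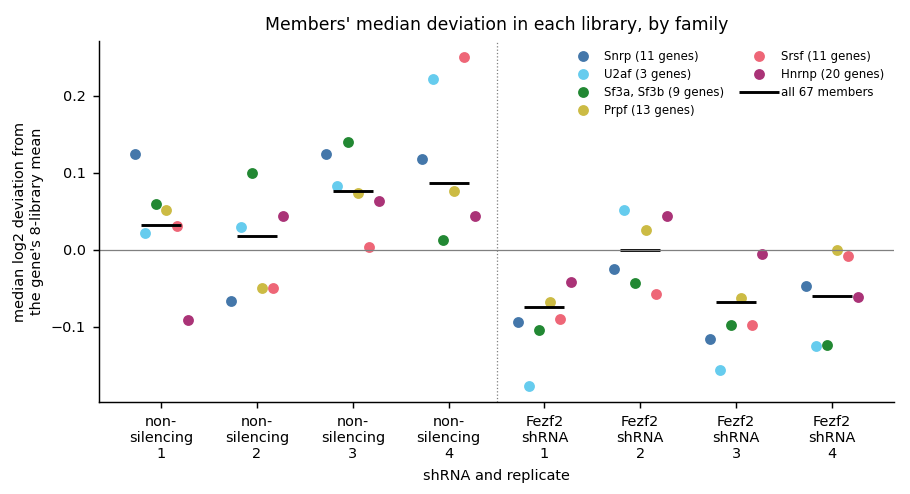
Median log2 deviation of each family's members from their own mean over the 8 libraries (y axis), by shRNA and replicate (x axis). Black bars are the median of all 67 members, 0.09 in control replicate 4 and 0.00 in *Fezf2 shRNA* replicate 2.

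Markers of cell types were measured in the same libraries. The 6 neuronal genes had log2 fold changes from -0.15 to 0.28. *Rbfox3*, the one with an unadjusted p under 0.05, had a mean of 8152 for the control group and 9886 under *Fezf2 shRNA* (normalized counts, adjusted p = 0.144 in edgeR's quasi-likelihood test), and *Snap25* had 76688 and 73531. The liver gene *Alb* had at most 4.90. The 5 oligodendrocyte markers summed to 37458, 45151, 41421 and 61676 in the controls and 26870, 23860, 39134 and 38590 with *Fezf2 shRNA*. Of these 5, 4 had an unadjusted p under 0.05 and none passed the threshold in edgeR's quasi-likelihood test, with log2 fold changes from -0.58 to -0.43. None of the 5 was at 0 in any library. Control replicate 4, where the Srsf genes were highest, also had the highest oligodendrocyte sum, while *Fezf2 shRNA* replicate 2 had the lowest sum and the highest share of counts on the members in its group (0.242%). The part of these cells in the members' values was not tested. The 5 microglial markers summed to 6911 in the controls and 7005 with *Fezf2 shRNA*, and none had an unadjusted p under 0.05. The median log2 fold change was -0.18 for endothelial and -0.20 for striatal markers. It was -0.07 for astrocyte and -0.08 for oligodendrocyte precursor markers. No tested gene of these 4 types had an unadjusted p under 0.05. Among the controls, replicate 4 had the highest endothelial sum (1755.5) and the lowest striatal one (2011.0).

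Other genes of the pathway, 102 from a list by role, were all tested, and 0 passed the threshold in edgeR's quasi-likelihood test. At an unadjusted p under 0.05, 16 were lower (15.7%, against 6.13% of all genes) and 3 higher (2.94%, against 9.75%). The 16 became 24 (23.5%, against 7.63% of all genes) without *non-silencing shRNA* replicate 2 and 23 (22.5%, against 8.62%) with library totals. They became 10 (9.80%) without *non-silencing shRNA* replicate 1 or replicate 4 (4.84% and 5.14% of all genes), 8 (7.84%, against 4.37%) without *Fezf2 shRNA* replicate 3 and 9 (8.82%, against 4.84%) with the gene-length offset. The 3 became 1 with library totals (7.81% of all genes) and without *non-silencing shRNA* replicate 1, *Fezf2 shRNA* replicate 1 or replicate 4 (8.20%, 8.16% and 8.32%), and 7 (6.86%, against 10.5%) without *Fezf2 shRNA* replicate 2. DESeq2's Wald test passed 2 (1.96%, against 4.39% of all genes). The median was -0.11, and -0.08 with the gene-length offset, where the members' was -0.05. By role, it was -0.20 for 18 genes of the Prp19 complex and catalytic step (7 lower at an unadjusted p under 0.05). It was -0.15 for 21 snRNP proteins and -0.12 for 9 helicases. With the gene-length offset these medians were -0.14, -0.11 and -0.12. Without the offset it was -0.12 for 8 SR protein kinase and import genes, and -0.09 for 10 branch point and 9 exon junction genes. For 17 other hnRNP-type genes it was -0.03. The 10 SR-related genes had a median of 0.11 (0.10 with the offset), with 3 of 10 lower.

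*Zmat5*, a protein of the U11/U12 snRNP of the minor spliceosome, had 405.5, 404.7, 448.1 and 442.5 normalized counts in the controls and 291.3, 293.6, 306.2 and 360.1 with *Fezf2 shRNA*. The treatments did not overlap, and the LFC was -0.44 (SE 0.105, adjusted p = 0.0847 in edgeR's quasi-likelihood test). DESeq2's Wald test gave *Zmat5* an adjusted p = 0.012. With the study's filter of more than 8 cpm, *Zmat5* was not tested. *Slu7*, a factor of the second catalytic step, had an LFC of -0.25 (SE 0.0715, adjusted p = 0.134 in edgeR's quasi-likelihood test). Its adjusted p was 0.0402 in DESeq2's Wald test, where *Zmat5* and *Slu7* were the 2 genes past the threshold. Upward, *Taf15*, an RNA-binding protein, had an LFC of 0.26 (SE 0.112, adjusted p = 0.295 in edgeR's quasi-likelihood test).

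**Figure D5:**
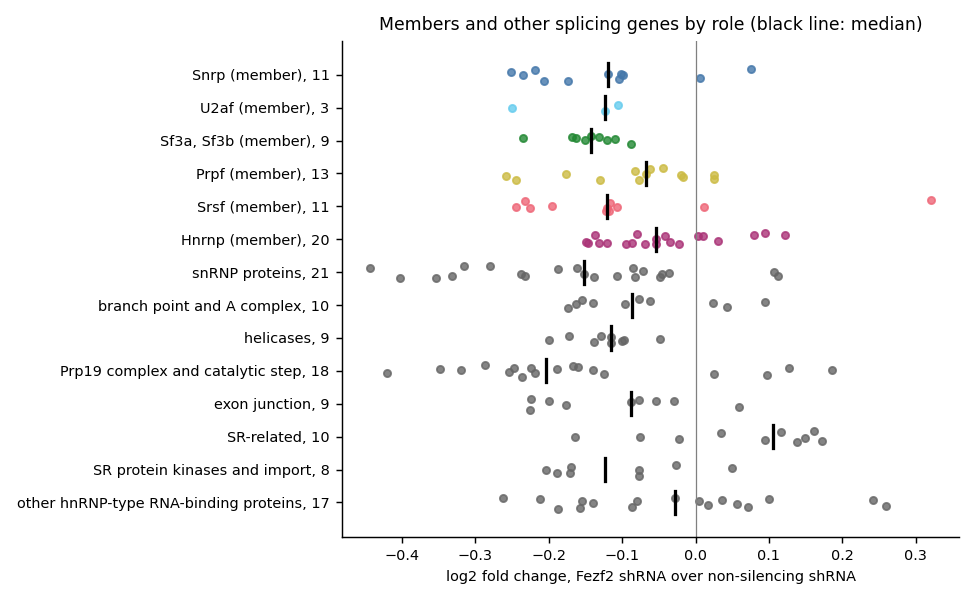
Log2 fold change (x axis) of the members by family and of the other 102 genes by role (y axis, with the number of genes), each point 1 gene. Black lines are medians, all below 0 but that of the SR-related genes.

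The counts come from whole genomic intervals, introns included, so each gene could be looked at through its other counted transcripts. The members have 367 counted transcripts, and 359 had a mean of at least 100 reads. Of these, 297 had a lower and 62 a higher mean with *Fezf2 shRNA*. Intervals of the same gene mostly overlap and share reads (1025 nested pairs), so they are not independent counts. *U2af1l4* alone has 34 of them. The share over the intervals of all genes was not computed. For the 14 members with 1 counted transcript, the interval is that of the gene itself. In 44 members every interval with a mean of at least 100 reads was lower, in 8 every one was higher, and 15 had both. *Srsf11*, an SR-related protein, had both, from -0.29 to 0.12 over its 14 intervals. In 3 members, *Srsf11* among them, an interval held fewer reads in some library than one nested in it, so the coordinates of such intervals are in doubt.

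A mostly exonic (at least 80%) and a mostly intronic part (at most 5% exonic), each with a mean of at least 100 reads, could be formed for 4 members. In *Hnrnpr* the log2 ratio was -0.13 for the exonic and -0.08 for the intronic part, in *Hnrnpf* -0.07 and -0.06, in *Prpf40b* -0.32 and -0.13, and in *Srsf12* -0.06 and 0.08. When a library was left out, the *Hnrnpr* parts ranged from -0.18 to -0.06 (exonic) and from -0.15 to 0.0078 (intronic). The ranges were -0.09 to -0.04 and -0.14 to 0.03 in *Hnrnpf*, and -0.49 to -0.07 and -0.20 to 0.01 in *Prpf40b*. In *Srsf12* they were -0.14 to -0.0017 and -0.0041 to 0.14. Both parts were lower in 3 of the 4, but in 1 without *non-silencing shRNA* replicate 3 or replicate 4 and in 4 without *Fezf2 shRNA* replicate 4. The exonic part of *Prpf40b* had 302.7 normalized counts in control replicate 4 and 159.8 to 182.6 in the other controls. Without that library its 2 values were -0.07 and 0.01. Whether a spliced read that spans an interval was counted in it is not given in the sources used here.

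Of the 67 members, 24 overlap another annotated gene, 4 of them over more than 50% of the interval (*Hnrnpab*, *Prpf31*, *Srsf2* and *U2af1l4*), and 20 overlap one on the other strand. A near-identical copy elsewhere (at least 95% identity over at least 200 nt), mostly a processed pseudogene, was found for 20 members. *Hnrnpa3* had 26 and *Hnrnpa1* 8. The counts of these genes are uncertain where reads that fit both places could be split, which affects *Snrpg*, *Snrpf*, *Srsf5*, *Srsf10*, *Hnrnpf*, *Hnrnpk*, *Hnrnpr* and *U2af2* among those described above.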

How the data were processed

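The authors trimmed reads, aligned them to mm10 (GRCm38) with TopHat2 2.1.1 and deposited raw counts per Ensembl transcript interval, made with BEDTools multiCov 2.26.0. Their DESeq2 comparison was not used. Of 94647 transcripts, 91320 were matched to GENCODE M21, and the 3327 others held 1.82% of the counts. Each gene was represented by the transcript with the lowest Ensembl number. For 7 members that transcript is not annotated as protein coding. Library totals were 54684016 to 58003814 counts, and the common biological coefficient of variation was 15.3%.

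Genes above 1 cpm in 4 or more libraries were tested with edgeR 4.0.16 (TMM, quasi-likelihood test, Benjamini-Hochberg over 16481 genes) in R 4.3.3, with no covariate. The limit is lower than that of the study because it defines the members. DESeq2 1.42.0, other filters, normalizations and transcripts, a loess offset for gene length (span 0.3), a replicate block and each library left out were alternatives. Copies were found with BLAST 2.17.0. Members and lists were chosen with earlier results of these data known. Named genes were any member or other pathway gene past the threshold, the 10 members with the smallest unadjusted p, 2 per family by p and the one with the most reads per kb, *Fezf2*, and 2 other pathway genes in each direction; some others are given with counts or ranges and were chosen after their values were seen. A few genes, one of them under this rule, are not reported here and stay in the counts, sums and medians.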

Additional observations from a re-analysis of the deposited data

Results flagged for a closer look

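The groups of 4 samples were checked for a sample far from the other 3 in each of the 22 named genes, 44 groups in all. One was found: *Srsf5* in *Fezf2 shRNA* replicate 2, at 4840 normalized counts, while the other 3 lay between 4025 and 4074. Chance alone gives such a gap in about 5% of groups. The log2 fold change of *Srsf5* without that library was -0.30, and -0.13 without *non-silencing shRNA* replicate 4.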

How the results depend on the processing

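No member passed the threshold with another filter, normalization, transcript, gene-length offset, replicate block or threshold in edgeR, or without any library. With DESeq2's Wald test 1 did (*Srsf4*), also with the filter of more than 8 cpm, a combination chosen after seeing the data. The number of all genes past the threshold was less stable: 208 with more than 8 cpm, 22 with library totals, 724 and 752 with DESeq2 without and with that filter, 36 with the widest transcript, 3 with the gene-length offset, and 1 to 224 when a library was left out. With the replicate block it was 18, and 2 with the offset as well. The replicate numbers do not pair the animals by any label, and deviations of same-numbered samples correlated at 0.242, 0.0198, -0.0211 and 0.0728, and not every sample correlated best with its own number. Members at an unadjusted p under 0.05 numbered 5 with the gene-length offset and 5 to 17 without a library. Members whose treatments did not overlap numbered 3 with DESeq2 and more than 8 cpm (5% of the 60 tested, against 11.8% of all genes), 4 with the offset, 9 with library totals (13.4%, against 10.1%), and 6 to 14 without a library (12.7% to 18.5% of all genes). The members' median was -0.046 with the offset, -0.047 with the replicate block added, and -0.13 to -0.08 without a library. Other pathway genes past the threshold numbered 2 and 3 with DESeq2. Leaving out libraries for their counts at an unadjusted p and for exonic and intronic parts was added after seeing the data. *Fezf2* passed the threshold only with DESeq2 (-0.28, adjusted p = 0.0434, and -0.28, adjusted p = 0.0256, with more than 8 cpm). The log2 fold change of *Prpf8* reversed to 0.0063 with the offset, 0.0068 with offset and block, and lay between -0.059 and 0.033 without a library. Of 414 values of the 21 other named genes under alternatives, 403 kept direction and side of the threshold (with moves of over 1.5 times under the offset in *Hnrnpk*, *Hnrnpl*, *Snrpb*, *Srsf1*, *Srsf5* and *U2af2*), 6 passed it with DESeq2 and 5 (*Prpf8*) reversed. Apart from smaller numbers of genes or samples, the cause was not tested. At 54684016 to 58003814 counts per library, the spread between replicates was above the counting error of the mean raw count in 66 of 67 members, all but *Snrpg*.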
